A study of Mus musculus with 8 samples.

Results

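The enzymes described here move a methyl group from S-adenosylmethionine (SAM) to RNA, or to arginine and other residues of proteins. They were taken by symbol from the deposited table: every row named Mettl, Nsun, Prmt or Trmt with a number, together with Carm1, Trdmt1, Fbl, Dimt1, Rnmt, Cmtr1, Cmtr2, Henmt1, Wtap and Virma. This gave 69 of the 31723 rows. The symbols gather more than the RNA and arginine methyltransferases, since the Mettl family also holds enzymes of protein lysine and histidine (7 rows, with Mettl11b of protein N-termini among them), of thiols (4 rows) and of other or unassigned substrates (4 rows), and 1 row, Mettl4-ps1, is a pseudogene. The RNA came from muscle stem cells sorted by flow cytometry, without culture, from hindlimb muscle of wild-type C57BL/6 mice. The 4 old libraries came from mice of 20 months and the 4 young libraries from mice of 3 months. No genetic change and no treatment separated them, and the labels leave unsaid whether each library is 1 mouse or several pooled. The p-values therefore reflect the spread among these 8 libraries only, and some of that spread may be technical.

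SAM is the methyl donor of nearly all of these enzymes, and each reaction returns S-adenosylhomocysteine, which inhibits many of them. On messenger RNA a complex of METTL3 and METTL14, held by WTAP and VIRMA, writes N6-methyladenosine (m6A), and the cap enzymes methylate the first nucleotides. On transfer and ribosomal RNA, methyl groups shape folding and decoding. PRMT enzymes methylate arginines of histones, splicing factors and RNA-binding proteins. In muscle stem cells CARM1 methylates PAX7, and PRMT5 and PRMT7 have been found in mice to be needed for muscle regeneration. By its title the study concerns loss of SAM and of heterochromatin in aged muscle stem cells, and old against young is its single comparison.

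Depth, in recovered reads, was 19.0 to 26.7 M in old and 21.6 to 34.7 M in young. The defining stem cell genes were present in every library, with Pax7 between 1868 and 3485, Myf5 between 2852 and 4135 and Vcam1 between 13880.4 and 23728 normalized counts, and of 11 stem cell markers none rose and 2 fell. Markers of other cell types were present as well. Of 15 fibroblast and fibro-adipogenic progenitor markers 4 rose and none fell, with a summed level of 134199 to 308666 in old and 104817 to 172452 in young, and of 5 tenocyte markers 4 rose, with sums of 11042 to 106019 in old and 2835 to 8091 in young. None of 8 endothelial markers passed, and their sum stood highest in old library 3 (51376, against 20052 to 23901 in the other old libraries) and young library 3 (61959, against 17214 to 32401 in the other young libraries). Of 5 pericyte and smooth muscle markers 1 rose, and none of 8 leukocyte, 4 Schwann cell, 7 tested muscle fibre and 4 erythroid markers passed. Of all these markers only Tnnc2, of muscle fibres, was at 0 in some library. By the same limma test, described below, 3.34% of all tested genes rose and 1.88% fell. In RNA from sorted cells in bulk, fewer cells of a type and less RNA per cell cannot be told apart.

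Of the 69 rows 60 reached the minimum mean, 10 normalized counts, and were tested. Prmt2 rose in old cells, and no other member passed the test in either direction (limma, adjusted p under 0.05 over 14822 genes). That is 1 of 60 higher, or 1.67%, where 3.34% of all tested genes were called higher, and 0 of 60 lower, where 1.88% of all tested genes were called lower. At an unadjusted p under 0.05 there were 4 higher and 3 lower members, 11.7% of the 60, where 20.8% of all tested genes reached it. With 1 member called, these shares rest on few genes, and they are not read as a result about the members. Most differences were small. The median log2 fold change (old over young) of the 60 was 0.024, beside 0.045 over all tested genes, and its median size was 0.14, beside 0.21. Among genes whose mean was 50 normalized counts or more, the median size was 0.14 for 56 members and 0.18 for all 12054. A log2 fold change of at least 0.5 in size was seen in 4 members, or 6.67%, where 20.2% of all genes had one, and of at least 1 in 2 members, or 3.33%, where 6.69% of all genes had one. Both genes of at least 1, Mettl24 and Nsun7, were at low counts.

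**Figure D1:**
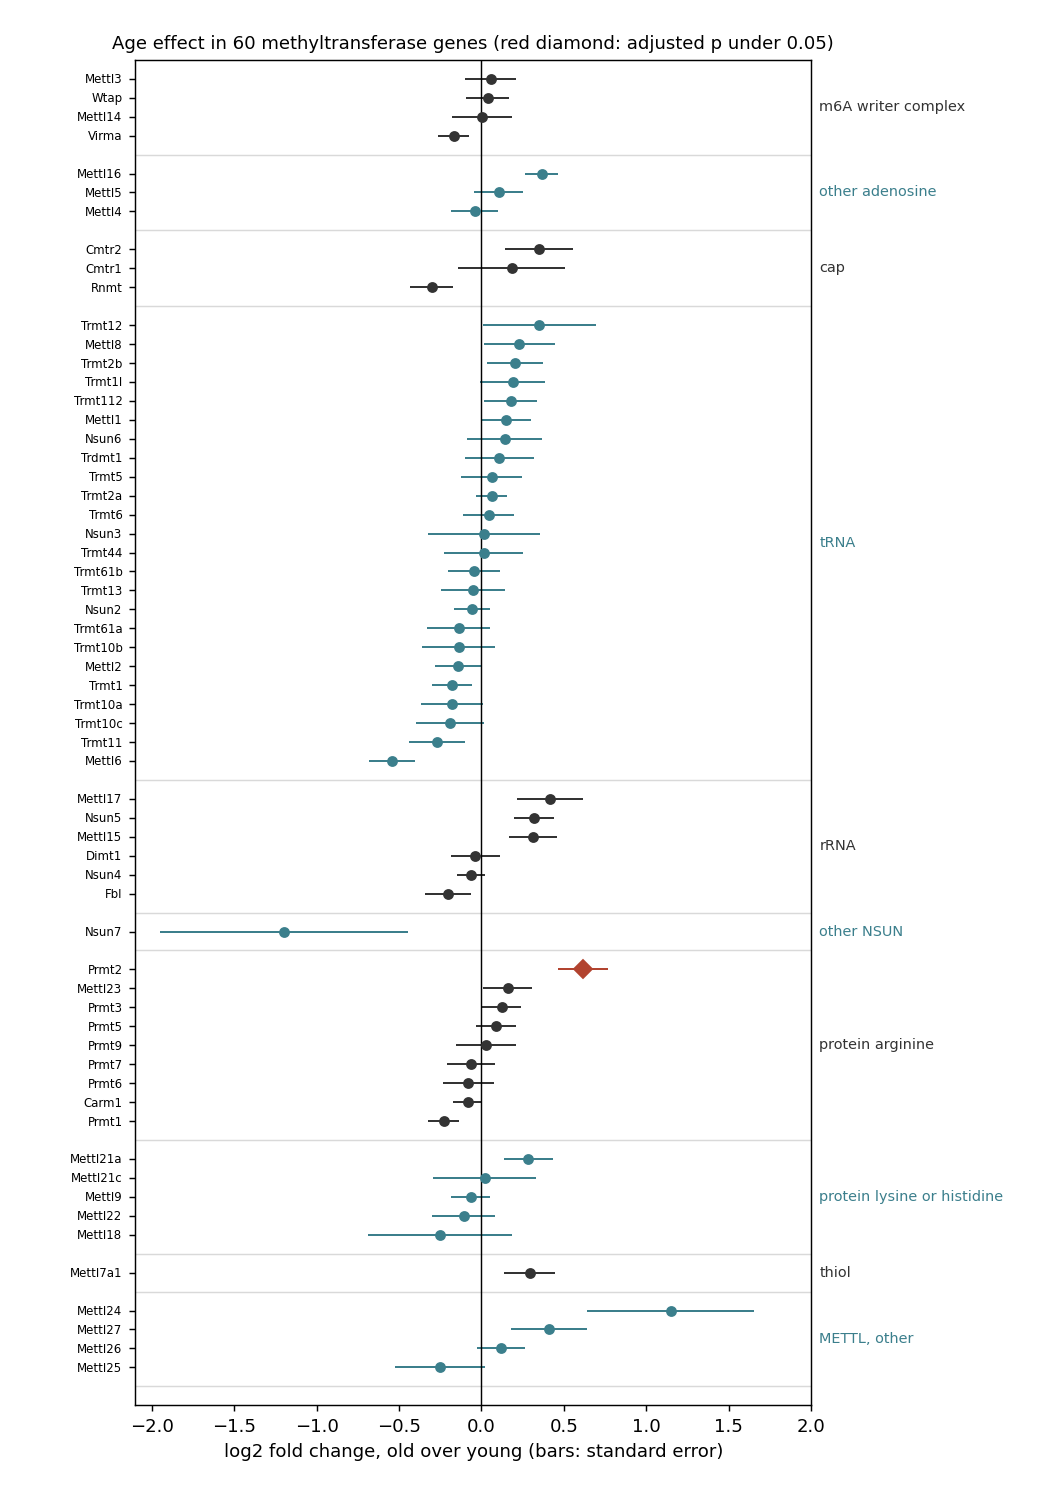
Log2 fold change, old over young, of the 60 tested genes (horizontal axis, with bars of 1 standard error), grouped from top to bottom by what the enzyme methylates. Prmt2, at 0.61, is the single gene past the threshold, and 56 of the 60 lie within 0.5 of 0.

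The protein arginine methyltransferases were 10 rows, of which 9 were tested, 1 rose and none fell. Prmt2 encodes an arginine methyltransferase with an SH3 domain that acts as a coactivator of nuclear receptors. Its normalized counts were 306, 342, 323 and 385 in old libraries 1 to 4, against 180.2, 264, 233 and 212 in young libraries 1 to 4. Every old library stood above every young one, and the means were 339 ± 33.8 in old and 222 ± 35.4 in young (SD, n = 4 each). The log2 fold change was 0.61 ± 0.15 (SE), or 1.53-fold, with limma adjusted p = 0.0466. The call lay close to the threshold: it held without young library 2 (adjusted p = 0.0412), and without each of the other 7 libraries in turn the adjusted p was 0.0575 (young library 3) to 0.127 (old library 4), with the log2 fold change between 0.52 and 0.70. The highest young value was that of young library 2, which also had the highest sum of fibroblast markers among the young libraries. Young library 1 had the lowest Prmt2 value. Its fibroblast sum (131971) was above those of young libraries 3 and 4 (105019 and 104817). The sums of fibroblast markers in old libraries 1 to 4 were 198532, 308666, 134199 and 293658. Among these, Prmt2 was highest in library 4, next in library 2, then in library 3 and lowest in library 1. A fit with the level of those markers as a covariate gave Prmt2 a log2 fold change of 0.40 ± 0.23 (SE, limma adjusted p = 0.63). That fit called 8 genes higher and 6 lower among all tested genes, where the main fit called 495 and 278. Its adjusted p-values thus separate few genes, and no conclusion is drawn from that of Prmt2. The part of other cell types in the difference was not tested further. Prmt2 was called in 5 of the 20 alternatives of the closing section, DESeq2 on the recovered reads among them (adjusted p = 0.0119).

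The start of Prmt2 is shown because it is the one called member, and that of Mettl6, the next in order of p, for comparison. Both windows run from 250 bases before to 50 bases after the gene start in RefSeq on build GRCm38.p6, on the minus strand, chr10:76237816-76238115 and chr14:31494991-31495290. Capitals mark paired GCGC and CCGGAAG, on either strand. Paired GCGC is GCGC and again GCGC with any 2 bases between, and it resembles the binding motif of the respiratory factor NRF1. CCGGAAG is a form of ETS factor motifs, and other forms of either motif were not marked.
Prmt2: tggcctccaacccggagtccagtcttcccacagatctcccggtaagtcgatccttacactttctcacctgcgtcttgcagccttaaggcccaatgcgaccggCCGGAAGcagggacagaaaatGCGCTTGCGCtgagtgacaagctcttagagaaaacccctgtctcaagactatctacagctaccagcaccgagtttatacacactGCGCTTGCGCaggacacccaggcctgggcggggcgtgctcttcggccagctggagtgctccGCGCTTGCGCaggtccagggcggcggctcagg
Mettl6: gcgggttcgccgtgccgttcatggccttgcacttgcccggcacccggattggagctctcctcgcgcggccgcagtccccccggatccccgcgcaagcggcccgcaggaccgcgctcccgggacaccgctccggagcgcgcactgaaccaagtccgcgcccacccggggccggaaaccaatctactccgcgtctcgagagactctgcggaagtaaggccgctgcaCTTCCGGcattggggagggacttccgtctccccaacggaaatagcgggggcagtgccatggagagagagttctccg
The Prmt2 window held paired GCGC at 3 places, each with the same letters, and CCGGAAG at 1. The Mettl6 window held CCGGAAG at 1 place, read on the other strand, and no paired GCGC, and that of Mettl16 held neither. Windows of 53 of the 69 rows were in the table. Paired GCGC was found in 9 of them (17.0%) and in 6.43% of the 27025 windows of all genes, of which 0.307% held it at 3 or more places. CCGGAAG was found in 17 members (32.1%) and in 9.12% of all windows, the E-box CANNTG in 66.0% and 72.1%, and TATAAA in 3.77% and 14.2%. The windows of all genes include non-coding and predicted genes. These matches describe letters only, and the first motif was chosen after the Prmt2 window was read.

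Prmt1, the main source of asymmetric dimethylarginine, was the most abundant member per kb of exon. It had 2226, 1941, 1847 and 1898 normalized counts in old libraries 1 to 4, against 2523, 2261, 2077 and 2405 in young. Old library 1 overlapped the young range, and the log2 fold change was -0.23 ± 0.09 (limma adjusted p = 0.202). Carm1, which methylates histone H3 and PAX7, had 1159, 1210.1, 1196 and 1395 in old, against 1284, 1352, 1286 and 1321 in young. The old values spread around the narrow young range, at a log2 fold change of -0.08 ± 0.09 (95% interval -0.28 to 0.11, limma adjusted p = 0.641). Some 21.1% of the merged exon length of Carm1 overlaps exons of a gene on the opposite strand, Yipf2. Prmt5, which makes symmetric dimethylarginine, had 1112, 966, 846 and 948 in old, against 954, 953, 751 and 989.9 in young, and the ages overlapped (0.09 ± 0.12, 95% interval -0.18 to 0.36, limma adjusted p = 0.745). Prmt7, which monomethylates arginine, had 946, 783, 565 and 809.9 in old, against 794, 847, 782 and 770.1 in young (-0.06 ± 0.15, 95% interval -0.39 to 0.26, limma adjusted p = 0.857). Old library 3 was the lowest Prmt7 value of all, and without it the log2 fold change was 0.08. The remaining tested members of this group, Prmt3, Prmt6, Prmt9 and Mettl23, had means of 244 to 912 normalized counts in old and 239.6 to 842 in young, and did not pass. Prmt8, known as a neuronal membrane enzyme, had 1.88 normalized counts in old library 1 and 0 in each of the other 7 libraries.

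**Figure D2:**
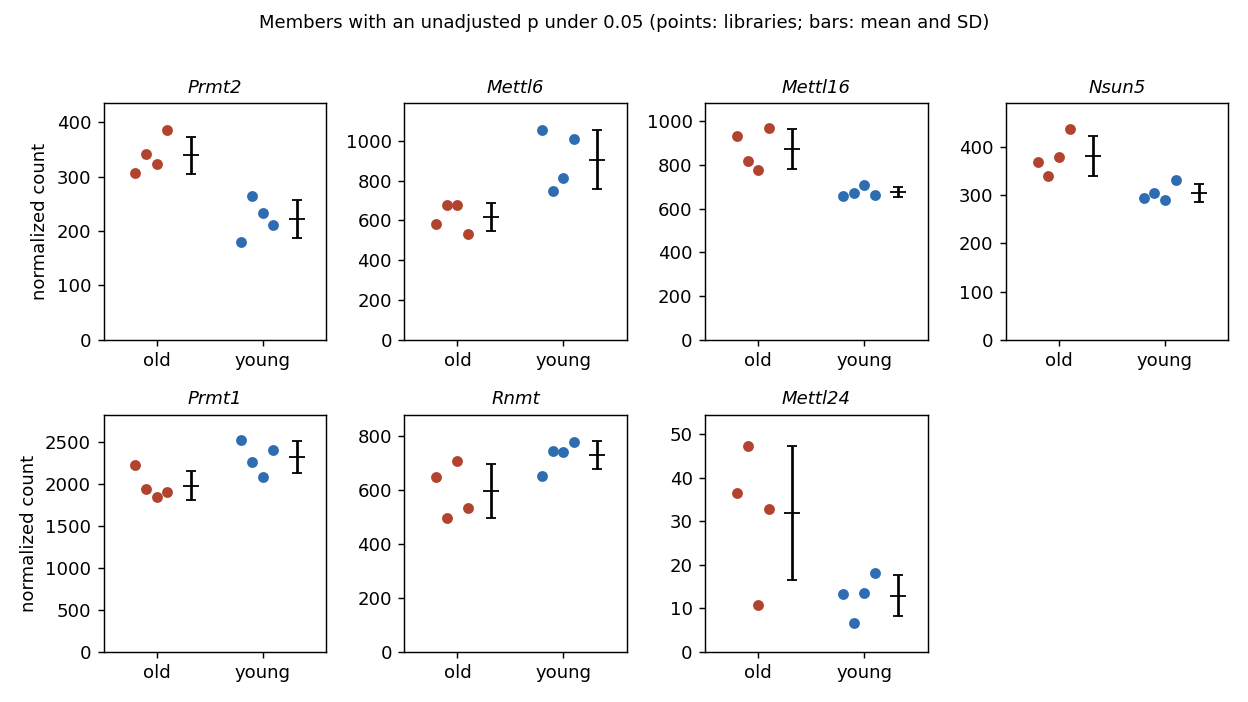
Normalized count (vertical axes, from 0) of each library, as points, with the mean and SD beside them, old on the left and young on the right, for the 7 genes with an unadjusted p under 0.05. The ages do not overlap for Prmt2, Mettl6, Mettl16 and Nsun5, and overlap for Prmt1, Rnmt and Mettl24.

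None of the 4 genes of the m6A writer complex passed. Mettl3, the catalytic subunit, had 542, 464, 474 and 427 normalized counts in old libraries 1 to 4, against 483, 344, 478 and 551 in young. Its partner Mettl14, which binds the RNA, had 252, 324, 250.1 and 314 in old, against 205, 345, 291 and 308 in young. In both genes the old values lay inside the young range, and the log2 fold changes were 0.06 ± 0.15 (95% interval -0.29 to 0.40, limma adjusted p = 0.889) and 0.0021 ± 0.18 (95% interval -0.40 to 0.41, limma adjusted p = 0.997). Opposite-strand exons of Tox4 cover 18.4% of the merged exons of Mettl3. Wtap, the adaptor that brings the complex to nuclear speckles, had 483, 371, 433 and 416 in old, against 372, 392, 484 and 409.9 in young, a nearly equal range (0.04 ± 0.13, 95% interval -0.25 to 0.33, limma adjusted p = 0.907). Virma, the scaffold that guides the complex to the end of the transcript, had 971, 1053, 1173 and 1127 in old, against 1222, 1181, 1148 and 1303 in young. Of the old libraries only library 3 reached the young range, and the log2 fold change was -0.17 ± 0.09 (95% interval -0.37 to 0.04, limma adjusted p = 0.344). The intervals of Mettl3, Mettl14, Wtap and Virma thus all lay within 0.41 of 0 in this fit, and with the fibroblast covariate Mettl3 was at 0.40 (adjusted p = 0.589).

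The 3 genes grouped here as other RNA adenosine methyltransferases, apart from those listed with the tRNA and rRNA enzymes, did not pass. Mettl16 methylates the U6 spliceosomal RNA and hairpins in the messenger of Mat2a, the SAM synthetase, and in human cells ties the splicing of that messenger to the level of SAM. It had 935, 818, 776 and 969 normalized counts in old libraries 1 to 4, against 661, 674, 708 and 662 in young. Every old library stood above every young one, with means of 874 ± 92.0 in old and 676 ± 22.2 in young (SD, n = 4 each), and the log2 fold change was 0.36 ± 0.10 (95% interval 0.14 to 0.59, limma adjusted p = 0.0696). Its adjusted p stayed above the threshold in all 20 alternatives, between 0.0508 with DESeq2 and 0.638 with the fibroblast marker covariate. Mettl5, which methylates the RNA of the small ribosomal subunit, averaged 185 ± 14.5 in old and 173 ± 16.5 in young, and Mettl4, which acts on U2 small nuclear RNA, 259 ± 27.0 in old and 267 ± 30.2 in young (SD, n = 4 each).

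Among all tested genes every old library stood above every young one in 7.99%, and in 4 of the 60 members (6.67%), namely Prmt2, Mettl16, Nsun5 and Mettl7a1. Every old library stood below every young one in 5.46% of all tested genes and in 1 member (1.67%), Mettl6.

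Of the 3 cap methyltransferases none passed. Rnmt, which methylates the cap guanosine, had 648, 494, 708 and 534 normalized counts in old libraries 1 to 4, against 653, 746, 741 and 778 in young. Old libraries 1, 2 and 4 lay below the young range, library 1 by little, and library 3 within it, at a log2 fold change of -0.30 ± 0.13 (limma adjusted p = 0.224). The fit with the fibroblast covariate gave Rnmt a log2 fold change of -0.051. Cmtr2, which methylates the second transcribed nucleotide, averaged 235 ± 50.7 in old and 184 ± 34.6 in young. Cmtr1, which acts on the first, had far fewer counts, 39.8 ± 12.3 in old and 33.7 ± 5.79 in young (SD, n = 4 each). Exons of Ccdc167 on the opposite strand cover 47.2% of the merged exons of Cmtr1, and 2 predicted genes on the same strand cover 36.3%, so that reads of Cmtr1 may have been assigned elsewhere or dropped.

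Of 25 tRNA methyltransferases and their activators 24 were tested, none rose and none fell. Mettl6, which methylates a cytosine in serine tRNA, had the smallest p of them and lay just outside the threshold. It had 583, 677, 676 and 534 normalized counts in old libraries 1 to 4, against 1054, 749, 811 and 1007 in young. Every old library stood below every young one, and the means were 617 ± 71.0 in old and 905 ± 148 in young (SD, n = 4 each), at a log2 fold change of -0.54 ± 0.14 (limma adjusted p = 0.0508). Young libraries 1 and 4 were the high ones, and without young library 1 the log2 fold change was -0.47 (adjusted p = 0.137), while without young library 2 it was -0.63 (adjusted p = 0.0396) and without young library 3 -0.59 (adjusted p = 0.0497). EdgeR and DESeq2 on the recovered reads put Mettl6 past the threshold (adjusted p = 0.0490 and 0.0074), and the fit with the fibroblast covariate gave -0.33 (adjusted p = 0.664). The related enzymes Mettl2 and Mettl8, the second in mitochondria, averaged 614 ± 60.3 and 152 ± 13.6 in old, against 682 ± 124 and 133 ± 39.3 in young (SD, n = 4 each).

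Nsun2, which methylates cytosines of many tRNAs, was the tRNA enzyme with the highest counts, at 2555, 2545, 2104 and 2116 in old libraries 1 to 4, against 2592, 2261, 2151 and 2697 in young. The ages overlapped throughout (-0.06 ± 0.11, 95% interval -0.30 to 0.18, limma adjusted p = 0.819). Trmt112, the small protein that activates several tRNA and rRNA methyltransferases, had 193, 139, 165 and 157 in old, against 139, 135, 152 and 149 in young (0.18 ± 0.16, limma adjusted p = 0.583). Exons of Esrra and Prdx5 on the opposite strand cover 39.1% of its merged exons, and it has processed pseudogenes, so its count is uncertain. Trmt10c, a subunit of mitochondrial RNase P, averaged 1032 ± 158 in old and 1208 ± 369 in young, and the young libraries ran from 865 (library 2) to 1620.4 (library 4). Mettl1, which with Wdr4 writes 7-methylguanosine, averaged 377 ± 53.4 in old and 339.7 ± 48.7 in young. Trdmt1, a cytosine methyltransferase of tRNA related to the DNA methyltransferases, averaged 181 ± 22.2 in old and 172 ± 47.0 in young. For the pair that together makes 1-methyladenosine, the means were 266 ± 10.7 in old and 261 ± 51.8 in young for Trmt6, and 259.6 ± 60.4 in old and 282 ± 43.1 in young for Trmt61a (SD, n = 4 each). Over the 24 tested genes the log2 fold changes ran from -0.54 to 0.35 with a median of 0.014, 13 of them above 0 and 11 below.

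None of the 6 rRNA enzymes passed. Fbl, fibrillarin, adds 2'-O-methyl groups guided by small nucleolar RNAs, and had 1110.2, 967, 771 and 803 normalized counts in old libraries 1 to 4, against 1112, 1029.6, 882 and 1151 in young. Old libraries 3 and 4 lay below every young one, at a log2 fold change of -0.20 ± 0.14 (95% interval -0.51 to 0.10, limma adjusted p = 0.454). Nsun5, which methylates a cytosine of the large subunit RNA, had 369, 339.9, 379 and 439 in old, against 294, 304, 291 and 331 in young. The ages did not overlap, and the log2 fold change was 0.32 ± 0.12 (limma adjusted p = 0.173). Exons of Pom121 on the opposite strand cover 15.4% of its merged exons. The mitochondrial members were Mettl15, with 326 ± 13.5 in old and 264 ± 44.6 in young, Mettl17, an assembly factor, with 208 ± 55.1 in old and 152 ± 16.1 in young, and Nsun4, with 825 ± 28.7 in old and 863 ± 39.5 in young. Dimt1, which dimethylates adenosines of the small subunit RNA, averaged 521 ± 74.4 in old and 536 ± 87.4 in young (SD, n = 4 each). Kif2a exons on the opposite strand cover 31.9% of the merged exons of Dimt1.

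Among the Mettl genes with protein substrates 5 of 7 were tested and none passed. Mettl9, a histidine methyltransferase, had the highest counts of these, with 594, 515, 671 and 605 in old libraries 1 to 4, against 554, 609, 712 and 619.7 in young (-0.07 ± 0.12, limma adjusted p = 0.814). Mettl21c, known as a muscle-enriched lysine methyltransferase, was low, at 50.1 ± 12.2 in old and 50.3 ± 15.7 in young. Mettl21a, which methylates Hsp70 chaperones, averaged 422 ± 40.0 in old and 349.8 ± 63.8 in young (SD, n = 4 each). Mettl7a1, whose human counterpart methylates thiols, had 446, 334, 349.9 and 356 in old, against 325, 319, 332 and 239 in young. The ages did not overlap, by a narrow margin, and young library 4 was the low one (0.29 ± 0.15, limma adjusted p = 0.316). Mettl26 had 481, 373, 398 and 533 in old, against 465, 403, 361 and 407 in young (0.12 ± 0.14, limma adjusted p = 0.704).

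Mettl24 had the highest log2 fold change of the members, from few counts. It had 36.6, 47.4, 10.7 and 32.8 in old libraries 1 to 4, against 13.2, 6.65, 13.4 and 18.2 in young. Old library 3 lay within the young range and the other 3 above it, at a log2 fold change of 1.15 ± 0.51 (limma adjusted p = 0.232). Old library 3 also had the lowest sum of fibroblast markers among the old libraries. Old library 2 had the highest such sum (308666) and the highest Mettl24 value. Old libraries 1 and 4 had sums of 198532 and 293658, and Mettl24 was higher in library 1. Among the young libraries, library 2 had the highest such sum and the lowest Mettl24 value. Library 4 had the lowest sum of the young libraries and the highest Mettl24 value. The young values were few counts, and nothing is read from their order. The part of other cell types in Mettl24 was not tested. Without old library 3 the log2 fold change was 1.58 (limma adjusted p = 0.0713). Nsun7 had the lowest log2 fold change, also from few counts, with 5.63, 6.54, 15.0 and 0.782 in old, against 11.4, 16.1, 30.3 and 4.96 in young (-1.20 ± 0.75, limma adjusted p = 0.409). The ages overlapped, and at both ages library 3 was the highest and library 4 the lowest. Without 1 library Nsun7 ran from -1.66 (without old library 3) to -0.60 (without old library 4), and it was at -0.14 with the fibroblast marker covariate.

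The 9 members under the minimum mean of 10 normalized counts were not tested. Henmt1, which protects the ends of piRNAs in the germline, averaged 5.35 ± 0.466 in old and 4.98 ± 5.21 in young, and Trmt9b 6.79 ± 4.01 in old and 7.97 ± 4.60 in young (SD, n = 4 each). Mettl11b had 13.1, 0, 1.07 and 14.9 in old libraries 1 to 4, against 0, 0, 4.94 and 7.44 in young. Mettl7b had 9.38, 0, 5.37 and 0 in old, against 1.20, 5.70, 1.41 and 5.78 in young. Both genes were at 0 in at least 1 old library and above 0 in others. Mettl21e, a muscle relative of Mettl21c in mice, had 0, 0.817, 4.29 and 0.782 in old, against 0, 1.90, 2.12 and 0.826 in young. Mettl7a3 had 0.938, 1.63, 1.07 and 3.91 in old, against 1.80, 0.95, 0 and 1.65 in young, and Mettl7a2 had 1.88, 1.63, 0 and 0 in old, against 0.601, 0, 0 and 0 in young. Mettl7a1, Mettl7a2 and Mettl7a3 are close copies of each other and may share reads. The pseudogene row Mettl4-ps1 stood between 0.938 and 4.23. One read was worth 0.601 to 1.07 normalized counts, so these 9 rows rest on few reads, and no comparison of the ages is drawn from them.

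Per kb of merged exon, in the GENCODE M21 annotation, Prmt1 had the highest mean level over the 8 libraries (627 normalized counts per kb), followed by Nsun2 (414), Trmt10c (373), Carm1 (263), Mettl26 (242), Prmt5 (237) and Fbl (232). Neighbours in this order from Carm1 to Fbl are close and were not tested against each other. The writers of m6A were lower, with Virma at 161, Mettl3 at 92.7, Wtap at 67.2 and Mettl14 at 38.6, and Prmt2 stood at 83.0, Mettl6 at 98.2 and Mettl16 at 56.1 normalized counts per kb. Merged exons hold all annotated isoforms, which lowers the level of genes with many. Together the 69 rows took 0.134 ± 0.00567% of all normalized counts in old and 0.137 ± 0.00717% in young (SD, n = 4 each).

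**Figure D3:**
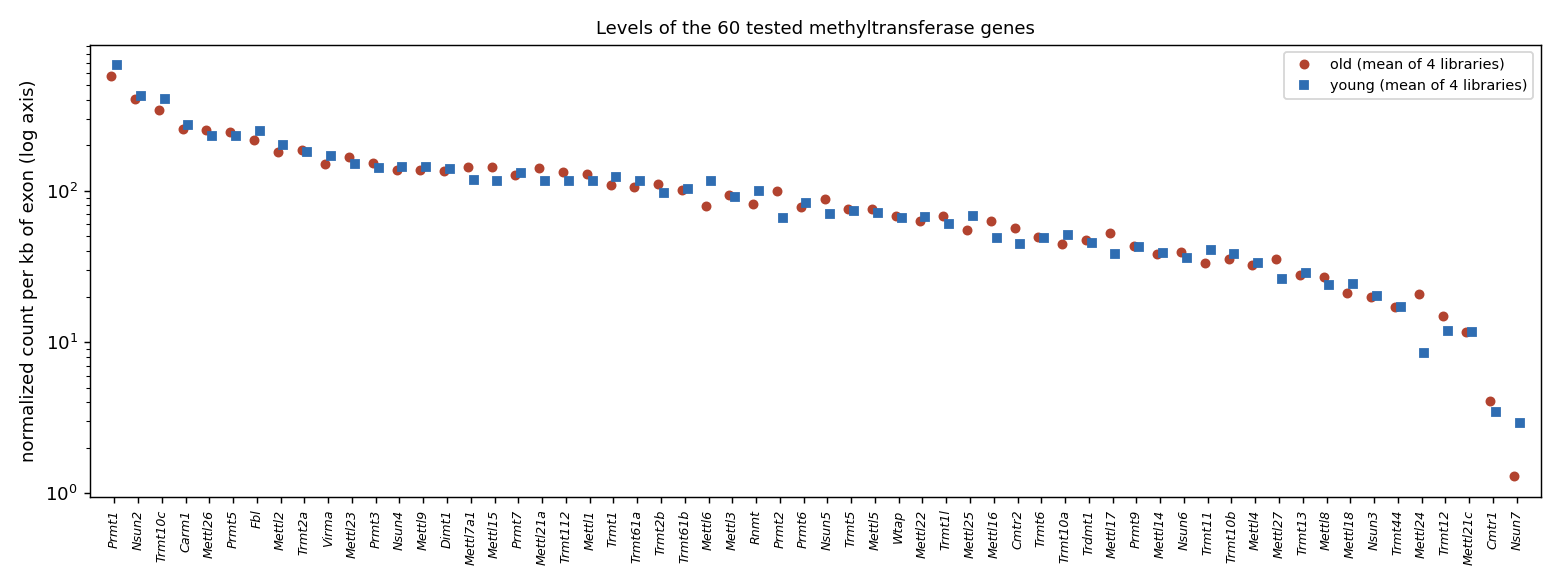
Mean normalized count per kb of merged exon (log axis) of the 60 tested genes in old (circles) and young (squares), ordered by the mean over all 8 libraries. Prmt1 leads at 627 over all libraries, and the 2 ages lie close together for most genes.

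Proteins that work with these enzymes, or read and erase the marks, were listed separately, together with other RNA-modifying enzymes outside the symbol rule. They were 87 genes in 5 lists, of which 84 were tested. Of these 1 rose and 1 fell, where 3.34% of all tested genes were called higher and 1.88% lower. These counts are small and are not read as a result about the lists. Of 15 tested partners, erasers and readers of m6A, Ythdc1 fell and none rose. This nuclear reader of m6A had 4570.4, 4379, 4538 and 4597 normalized counts in old libraries 1 to 4, against 5767, 5527, 5554 and 5731 in young. Each age held a narrow range, far from the other, and the log2 fold change was -0.32 ± 0.07 (limma adjusted p = 0.0249). Without each library in turn the log2 fold change was between -0.33 and -0.30, and the adjusted p was under the threshold without young library 2 (0.0455), young library 3 (0.0393) or old library 3 (0.0498) and above it without young library 1 (0.0823), young library 4 (0.0726), old library 1 (0.0613), old library 2 (0.0632) or old library 4 (0.0547). With the fibroblast covariate Ythdc1 was at -0.30 (adjusted p = 0.429), and its adjusted p was also above the threshold without the intensity trend (0.0737), with the replicate number as a block (0.0599) and without both libraries 3 (0.0669). Ythdc1 was called in 11 of the 20 alternatives, among them DESeq2 (adjusted p = 0.00025), edgeR (0.0266) and quantile normalization (0.0446). The median of this list was -0.086, and 10 of its 15 log2 fold changes lay below 0.

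Of 7 tested genes that make, bind or remove the cap, Nudt16 rose and none fell. Nudt16, a hydrolase that removes caps from nuclear RNAs and clears inosine nucleotides, had 229, 225, 229 and 209 in old libraries 1 to 4, against 159, 143, 152 and 134 in young. Every old library stood above every young one (0.60 ± 0.14, limma adjusted p = 0.0351). Its adjusted p was above the threshold without any 1 library, between 0.0520 (young library 3) and 0.0935 (old library 1), with log2 fold changes of 0.55 to 0.64. It was also above with no filter (0.0568), quantile normalization (0.157, at 0.42), the replicate number as a block (0.0718), the fibroblast covariate (0.401) and without both libraries 3 (0.0931), and Nudt16 was called in 7 of the 20 alternatives.

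The other lists held no called gene. Their counts at an unadjusted p under 0.05, given next, stand beside the 20.8% of all tested genes that reached it, and none is read as a result about its list. Of 33 tested tRNA partners and modifiers, 3 were lower and 1 higher at an unadjusted p under 0.05. The 3 with the smallest p were Alkbh1, a tRNA demethylase (664 ± 93.6 in old, 938 ± 142 in young, log2 fold change -0.50), Dus2, which makes dihydrouridine (187 ± 13.8 in old, 131 ± 34.3 in young, 0.54), and the cytidine acetyltransferase Nat10 (553 ± 69.7 in old, 692 ± 84.3 in young, -0.32). Their limma adjusted p was 0.0726, 0.159 and 0.184. Of 17 rRNA partners and further rRNA enzymes, 2 were higher at an unadjusted p under 0.05 and none lower. They were Tfb1m, which dimethylates mitochondrial rRNA, with 51.6 ± 16.2 in old and 23.8 ± 10.8 in young (1.14, limma adjusted p = 0.128), and Mrm1, another mitochondrial rRNA enzyme, with 197 ± 39.2 in old and 141 ± 12.6 in young (0.46, limma adjusted p = 0.17). Tfb2m, a mitochondrial transcription factor, followed with 336 ± 74.3 in old and 431 ± 64.0 in young (-0.37, limma adjusted p = 0.273). Of 12 arginine methylation partners and readers, 3 were lower at an unadjusted p under 0.05 and none higher. Riok1 and Wdr77 both bind PRMT5, with 924 ± 104 and 692 ± 83.8 in old, against 1147 ± 48.5 and 944 ± 210.0 in young (-0.32 and -0.43, limma adjusted p = 0.107 and 0.164), and the Tudor protein Smndc1 had 928 ± 42.3 in old and 1084 ± 87.4 in young (-0.22, limma adjusted p = 0.205; SD, n = 4 for each mean). The medians of the 5 lists were between -0.086 and 0.041, beside 0.045 for all tested genes.

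**Figure D4:**
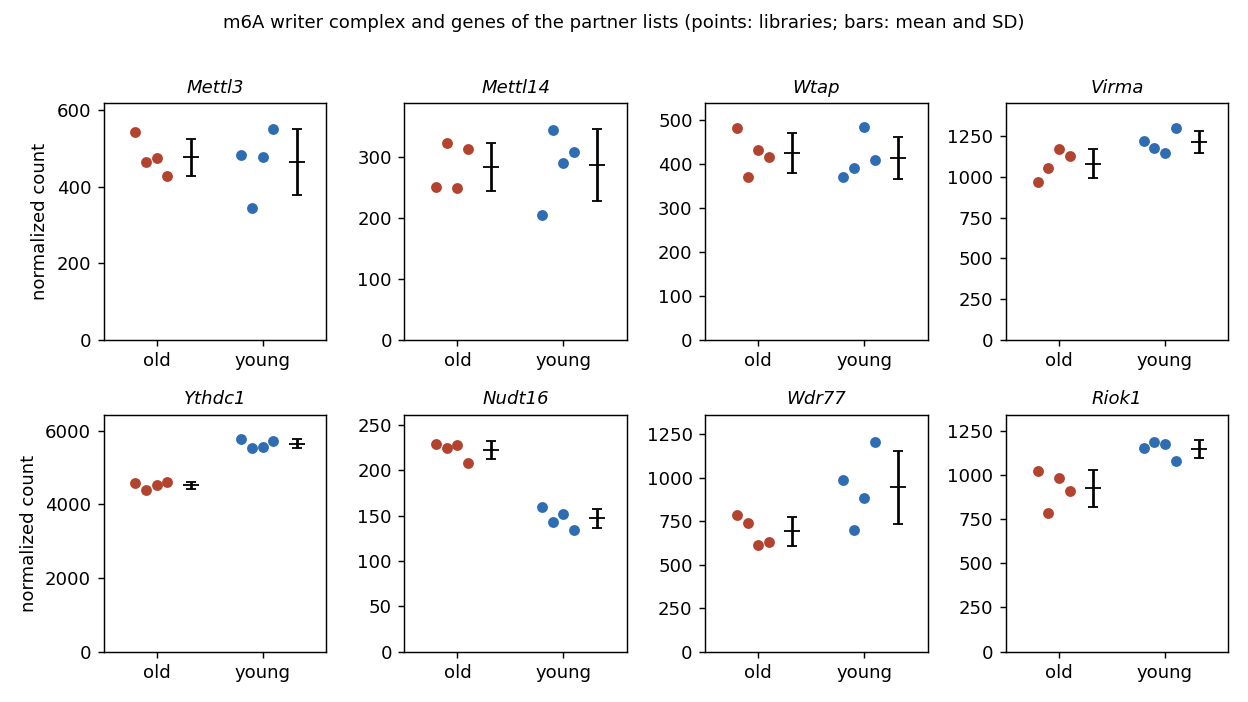
Normalized count (vertical axes, from 0) of each library, as points, with the mean and SD beside them, old on the left and young on the right. The 4 writers of m6A overlap between the ages, while the reader Ythdc1 is lower and Nudt16 higher in every old library than in every young one, and Wdr77 overlaps where Riok1 does not.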

How the data were processed

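The deposited table holds, per the submitters' processing notes and the file itself, a normalized signal per gene and library: a count divided by a size factor by the authors. Tools named there are featureCounts, DESeq2, STAR, Trim Galore 0.4.2 and Subread 1.5.1; both mm10 and GRCm39 are listed as builds, with no role given. Strandedness is not given in the sources used here. Amplified cDNA went into Nextera XT libraries, per the labels' protocols. Whole reads came back (within 0.01 reads) for at least 99.97% of values above 0, and served edgeR 4.0.16 and DESeq2 1.42.0.

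Ages were compared in limma 3.58.1 under R 4.3.3, using limma-trend on log2(normalized count + 1), age as the only term, two-sided, Benjamini-Hochberg adjusted over the 14822 genes with a mean of at least 10. This scale understates the change of low genes. Members and lists were chosen with earlier results of these data known. Every member was accounted for. Each library's value was printed for members with an unadjusted p under 0.05, fixed genes, the highest of each role and members at 0 in a library. Of each list, called genes were named, or otherwise the 3 with the smallest p. Other means were chosen after the values were seen. The script was tested on simulated data. The alternatives are in the closing section. Exon overlaps came from GENCODE M21.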

Additional observations from a re-analysis of the deposited data

Results flagged for a closer look

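The lowest or highest library of an age lay far from the other 3 in 6 of the 120 sets of 4 values (60 genes at 2 ages), by the gap to the nearest value as a share of the range (Dixon's ratio, beyond its 95% critical value). Chance gives about 1 in 20, and 6 of 120 is near that share, so no pattern is read from these sets. Nsun6 had 267 normalized counts in old library 3, against 169.6 to 179 in the other old libraries. Mettl27 had 78.3 in old library 3, against 131 to 132 in the others. Trmt11 had 276 in young library 3, against 185 to 200.4 in the other young libraries. Trmt5 had 200.3 in young library 3, against 138 to 144. Prmt5 had 751 in young library 3, against 953 to 989.9. Mettl7a1 had 239 in young library 4, against 319 to 332. Library 3 of either age was thus apart in 5 of the 6, high for Nsun6, Trmt11 and Trmt5, low for Mettl27 and Prmt5. At each age library 3 also had the highest sum of endothelial markers. The part of endothelial RNA in these values was not tested.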

How the results depend on the processing

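Over 20 alternatives the count of members called higher was 1 or 0 and that of members called lower 0 or 1. No member was called higher with no filter on low values, equal library totals, quantile normalization, the replicate block, eBayes without the trend, the fibroblast marker covariate, edgeR, or without young replicate 3 and old replicate 3 together (0 each time). Mettl6 made the count of lower members 1 with a pseudocount of 8, a minimum mean of 50, equal library totals, edgeR and DESeq2. Leaving out 1 library gave 0 to 1 higher and 0 to 1 lower members. Among all tested genes 495 were higher and 278 lower; the counts were 268 and 134 without the trend, 8 and 6 with the fibroblast marker covariate, 768 and 601 with DESeq2, 533 and 285 without replicates 3, and 213 to 523 and 117 to 316 without 1 library. The median log2 fold change of the members was 0.024, and -0.094 under quantile normalization (-0.031 over all genes), -0.021 with edgeR, -0.029 with DESeq2, 0.118 with the covariate and 0.066 without replicates 3, and was 0.0012 to 0.059 without 1 library.

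Genes with small differences changed sign. Mettl14 was at -0.15 under quantile normalization, -0.0047 with equal totals, -0.27 with the covariate, -0.042 with edgeR and -0.049 with DESeq2, and between -0.15 and 0.098 without 1 library. Mettl3 was at -0.030 under quantile normalization and -0.0049 with DESeq2, and -0.082 to 0.14 without 1 library, while the covariate gave 0.40. Wtap was at -0.064 under quantile normalization and -0.0017 with DESeq2, and -0.024 to 0.12. Trmt112 was at -0.010 under quantile normalization. With the covariate Prmt5 was at -0.051, Mettl9 at 0.12 and Mettl26 at -0.025. Prmt7 was at 0.070 without replicates 3 and -0.34 with the covariate. Without 1 library Prmt5 ran from -0.0031 to 0.15, Prmt7 from -0.17 to 0.080 and Mettl9 from -0.12 to 0.0026. The cause was not tested. The other 13 members given library by library and tested and the 11 named partner genes kept their sign in every alternative run.

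The replicate number as a block gave 0 called members (Prmt2 adjusted p = 0.0565, Mettl6 0.0825) and 559 higher and 252 lower genes. Same-numbered libraries had within-age deviations correlated at 0.188, 0.0723, 0.304 and -0.0416, and in 2 of 4 a young library correlated best with the old library of its own number. Nothing in the labels pairs them. With 4 libraries an age the median SE of the members was 0.16, which limits what could be called.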
